A study of Mus musculus with 12 samples.

Results

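Of the H3K9ac/K27ac peaks of floxed (Zfatf/f) thymocytes, the maturing T cells that fill the thymus, 1520 of 13016 were also called in Lck-Cre (Zfatf/f-LckCre) cells and carried no floxed ZFAT peak. These regions, called the retained ZFAT-free peaks here, were chosen by overlap of at least 1 bp with an Lck-Cre acetylation peak and of 0 bp with a floxed ZFAT peak. The rest of the floxed list held 11049 ZFAT-free peaks that were not called in Lck-Cre, 80 called in Lck-Cre with a ZFAT peak, and 367 with a ZFAT peak that were not called in Lck-Cre. The calls that chose the members therefore came from 3 libraries: H3K9ac/K27ac in floxed cells, H3K9ac/K27ac in Lck-Cre cells, and ZFAT in floxed cells.

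All mice were 4 to 5 weeks old. Both lines carry Zfat alleles flanked by recombination sites, and the Lck-Cre line also carries a Cre recombinase driven by Lck, a gene active in T lineage cells. How completely Zfat was deleted in these cells cannot be read from peak lists. B6 (C57BL/6) thymocytes gave a further ZFAT library, and floxed thymocytes gave an H3K9me3 library. Each group had 1 library, so all comparisons are between libraries, no p-value between conditions can be given, and every interval below covers counting error only.

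Acetylation of histone H3 at lysines 9 and 27 is laid down by acetyltransferases such as GCN5, PCAF, CBP and p300, is read by bromodomain proteins, and marks active promoters and enhancers. H3K9me3 sits on silenced chromatin and competes with acetylation for the same lysine 9. The acetylation antibody is labelled for both lysines, so the 2 marks cannot be told apart. ZFAT is a nuclear zinc-finger protein with an AT-hook, required for T cell development in mice.

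Each peak is described by 3 measures, and positions are in mm9. The P score is −log10 of the caller's p, and the fold is the authors' ratio of ChIP signal to local background. The pileup is the number of ChIP fragments stacked at the summit, inferred from the P score and the fold together with the local background at the peak (the scaled control level). The inferred depth was about 2190000 fragments for the floxed and 1340000 for the Lck-Cre acetylation library.

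The retained ZFAT-free peaks were mostly strong and broad ones of the floxed acetylation list, but only a part of its strong end. Of the ZFAT-free peaks, 746 of 2347 with P scores from 50 to below 100 were retained, and 159 of 254 at 100 or more. Their floxed P score had a median of 57.1 (quartiles 39.3 and 78.0, range 5.92 to 260.0), and their floxed pileup a median of 73 fragments (55 and 90, range 4 to 202). The ZFAT-free peaks that were not called in Lck-Cre had a median P score of 22.7 (13.3 and 39.4) and a median pileup of 34 fragments (18 and 54). Median length was 509 bp (range 153 to 2984) in the retained peaks and 259 bp (153 to 1982) in those not called. The quartile ranges of P score barely overlapped, between 39.3 and 39.4, and those of pileup did not overlap. Because a stronger peak is more easily called again, these values describe how the rule sorted the list and are given without a test.

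Of the 12569 ZFAT-free floxed peaks, 12.1% were retained, and within a band of scores this share was larger for longer peaks. Among peaks with a P score from 50 to 100, it was 10.7% (13 of 121, 95% interval 5.85% to 17.7%) below 200 bp and 29.6% (171 of 577, 25.9% to 33.5%) from 350 to below 500 bp. In the same score band it was 53.1% (104 of 196, 45.8% to 60.2%) at 1000 bp or more. At P scores of 100 or more it ranged from 44.0% (22 of 50, 30.0% to 58.7%) at 200 to below 350 bp to 90.2% (37 of 41, 76.9% to 97.3%) at 1000 bp or more. The Lck-Cre call is the rule itself, and a longer peak meets an overlap of at least 1 bp more easily. The shares by length are therefore a description. Between P scores of 50 and 100 the retained peaks had a median pileup of 83 fragments over a background of 4.74, against 73 over 4.06 in the peaks not called, at median scores of 68.1 and 61.7, so the bands do not match scores exactly. The median folds in that band were 14.1 against 14.8. Below a score of 20 the order of pileups and backgrounds was the reverse: from 10 to 20 the medians were 17.5 against 20.0 fragments and 1.35 against 2.03. Below a P score of 10, only 27 of 1535 peaks (1.76%, 1.16% to 2.55%) were retained, with a median pileup of 6 against 11 fragments on a background of 0.207 against 1.35.

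**Figure D1:**
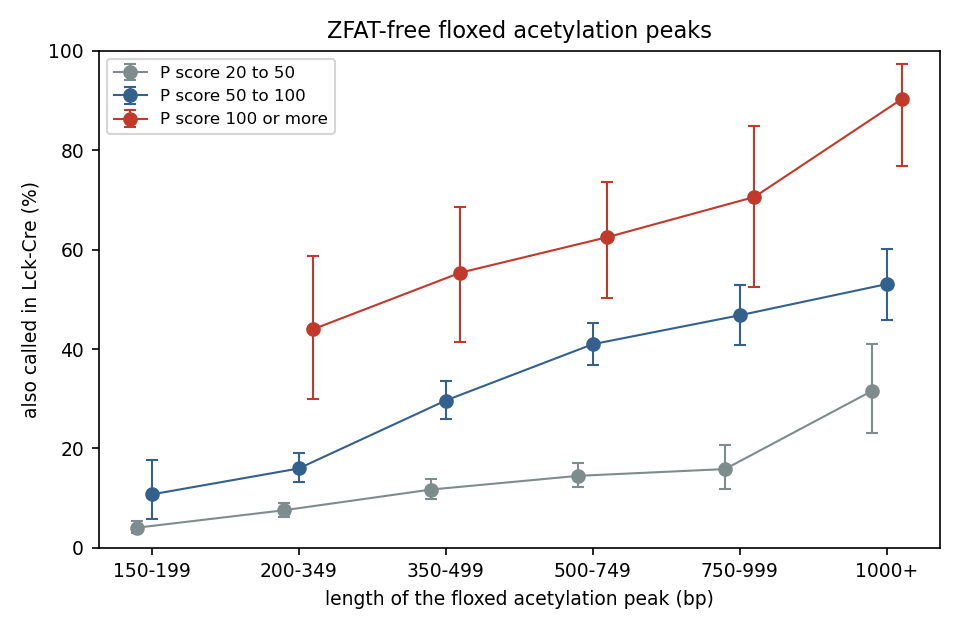
Share of ZFAT-free floxed acetylation peaks also called in Lck-Cre thymocytes (y axis, percent) by length of the floxed peak (x axis, bp), in 3 bands of floxed P score; bars are exact 95% binomial intervals, and groups of fewer than 20 peaks are not drawn. In the band from 50 to 100 the share goes from 10.7% below 200 bp to 53.1% at 1000 bp or more. The call is part of the rule, and longer peaks meet it more easily, so the shares are a description.

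At these regions the Lck-Cre acetylation signal was lower than the floxed signal. The strongest overlapping Lck-Cre peak had a median P score of 10.5 (quartiles 8.11 and 13.8, range 5.02 to 43.0), a median fold of 5.01 against 12.4 in the floxed list, and a median pileup of 21 fragments (17 and 25, range 3 to 59). Scaled to the inferred depths, the pileup ratio, Lck-Cre over floxed, had a median of 0.485 (quartiles 0.414 and 0.586), and 1468 of 1520 peaks lay under 1. The Lck-Cre fold exceeded the floxed fold at 66 peaks (4.34%, 3.37% to 5.49%). The calls were thus kept at a lower listed signal, and 664 of them (43.7%, 41.2% to 46.2%) had an Lck-Cre P score under 10. The controls of these lists are not named in their headers. The local background had medians of 4.74 fragments in the floxed and 3.37 in the Lck-Cre list. Each is at its own library's depth, so unlike the ratio they are not scaled to each other and cannot be compared directly.

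The median ratio was lowest in the group with the highest floxed pileup. The ratio had a median of 1.02 (quartiles 0.744 and 1.26) in the 74 retained peaks of up to 15 floxed fragments. The median was 0.569 (0.486 and 0.653) in the 305 peaks with 31 to 60 fragments, 0.466 (0.408 and 0.531) in the 674 with 61 to 90, and 0.411 (0.364 and 0.453) in the 57 above 120. The lowest single ratio was 0.466 in the group of up to 15 fragments, 0.207 in that of 61 to 90 and 0.236 in that above 120. The rule required an Lck-Cre call, so weak floxed peaks with still weaker Lck-Cre signal are not in the set. The floxed pileup that sets the groups is also the divisor of the ratio. Counting error in it therefore moves the ratio across the groups by itself, and this series is a description. Between 60 and 120 floxed fragments, where most of the retained peaks lay, the median moved only from 0.466 to 0.429. With the background subtracted from both pileups, the overall median was 0.436.

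**Figure D2:**
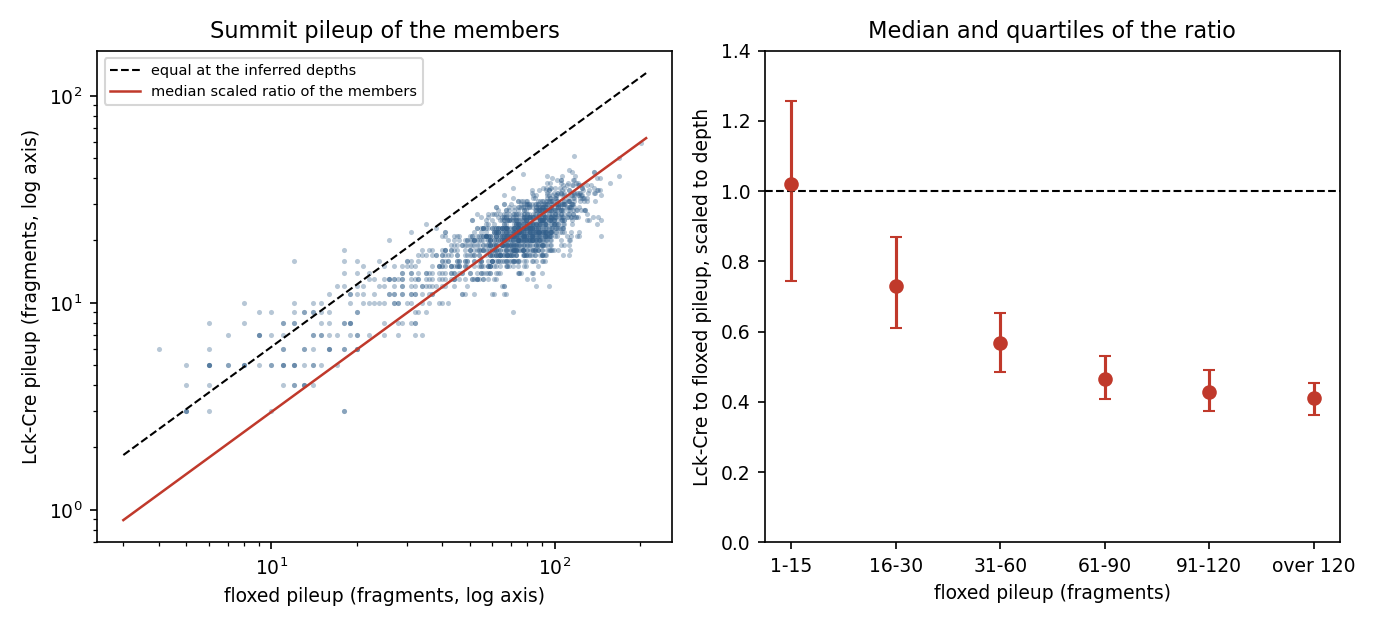
Left, Lck-Cre against floxed summit pileup of the 1520 retained ZFAT-free peaks (fragments, both axes logarithmic, 1 point per peak), with a dashed line where the pileups would be equal at the inferred depths and a red line at the median scaled ratio of 0.485. Right, median (point) and quartiles (bars) of the scaled ratio by floxed pileup, which is also the divisor of the ratio. The median is 1.02 up to 15 fragments and 0.411 above 120.

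The strongest retained peak in both lists was a narrow one, at chr7:80763017-80763239, 223 bp long. Its pileup was 202 fragments (Poisson 95% interval 175 to 232) in floxed and 59 (44.9 to 76.1) in Lck-Cre thymocytes, with folds of 40.1 and 10.3. The scaled ratio was 0.477 (0.350 to 0.640), close to the median of the set. The summits lay 15 bp apart, and the nearest floxed ZFAT peak was 245499 bp away.

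The next by floxed score was a broad region at chr5:65193899-65195528, 1630 bp long, with 169 floxed fragments (144 to 196) and 41 in Lck-Cre (29.4 to 55.6), a ratio of 0.396. It held 2 separate Lck-Cre peaks, and a B6 ZFAT peak called against input (fold 6.14, 12 fragments) overlapped the region. The third, at chr7:17428880-17429167, had 141 floxed and 24 Lck-Cre fragments, and its ratio of 0.278 (0.172 to 0.430) was the lowest of the leading 6. Chromosome 1, 64168461 to 64168780, with 168 and 50 fragments and a ratio of 0.486, was among the leading 6 of both lists. Chromosome 2, 18919009 to 18920275, and chr14:26279646-26280988, each had 130 floxed fragments, with 27 and 31 in Lck-Cre. The intervals of the ratio lay under 1 in all 6 of these regions. Ranking by floxed score favours high floxed pileups, and the intervals take the inferred depths as exact, so this is a description.

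Ranked by the Lck-Cre score, the second region was chr17:5189872-5190116. It had 117 floxed fragments (96.8 to 140.2) and 51 in Lck-Cre (38.0 to 67.1), a ratio of 0.711 (0.501 to 0.996). The others were chr11:51813786-51814202 (ratio 0.521), chr8:73051665-73052012 (0.397), and chr14:52639516-52640017 (0.606). At the chromosome 11 region the Lck-Cre fold of 17.0 was close to the floxed fold of 19.4, although the pileups were 31 and 97 fragments. The local background there was 0.879 in Lck-Cre and 4.06 in floxed cells. Folds and pileups did not rank these regions alike.

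Some regions had ratios far from the median, among retained peaks with at least 30 floxed fragments. The 3 highest were at chr8:74432551-74432736 (1.16, interval 0.639 to 2.07), chr9:95411892-95412221 (1.12, 0.637 to 1.93), and chr17:28660217-28660418 (0.987, 0.562 to 1.70). Their floxed pileups were 31, 35 and 38 fragments, and each interval spans 1. The 3 lowest were at chr3:103594650-103595502 (0.206, 0.103 to 0.377), chr17:69732278-69733577 (0.207, 0.0909 to 0.415), and chr8:124999469-124999948 (0.228, 0.113 to 0.418). In these the summits of the lists were 490, 585 and 151 bp apart, so the pileups compared were not taken at the same position.

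At the edge of the rule, the weakest Lck-Cre peaks over retained regions were tied at a P score of 5.02, with a fold of 2.75 and 19 fragments each. They lay at chr11:23565422-23565869, chr4:125840014-125840583, and chr6:8159156-8159701, where the floxed pileups were 67, 44 and 67 fragments. Just outside, the ZFAT-free floxed peaks nearest to an Lck-Cre peak without touching it were 102, 113 and 156 bp away. These were at chr4:117935083-117935259 (12 fragments), chr11:77306520-77306700 (12), and chr9:43851466-43851667 (20). The smallest overlap of a retained peak was 64 bp, and none of the 11049 peaks not called lay within 100 bp of an Lck-Cre peak, so the set did not rest on overlaps of a few bases.

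What the Lck-Cre peaks covered was the crest of the floxed peak. The summits of the 2 lists were a median of 26 bp apart (quartiles 9.75 and 89.3), and they were within 50 bp at 1022 of 1520 regions (67.2%, 64.8% to 69.6%). The floxed summit lay inside the strongest Lck-Cre peak at 1332 (87.6%, 85.9% to 89.2%). The Lck-Cre peak was usually the narrower, with a median length of 241 bp against 509 bp, and at 1380 regions (90.8%, 89.2% to 92.2%) it lay wholly within the floxed peak. Overlap itself favours close summits, so these distances are a description.

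The part covered was smaller in longer floxed peaks, while the Lck-Cre peak was little longer. From 350 to below 500 bp the median Lck-Cre length was 277.5 bp and 66.0% of the floxed peak was covered. At 1000 bp or more the Lck-Cre median was 306 bp and the covered part 29.8%. The floxed summit was inside the strongest Lck-Cre peak at 327 of 340 regions (96.2%) in the first of these groups and at 118 of 177 (66.7%) in the second. With every overlapping Lck-Cre peak taken into account, the floxed summit was inside one at 134 of these 177 (75.7%) and outside all of them at 43.

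**Figure D3:**
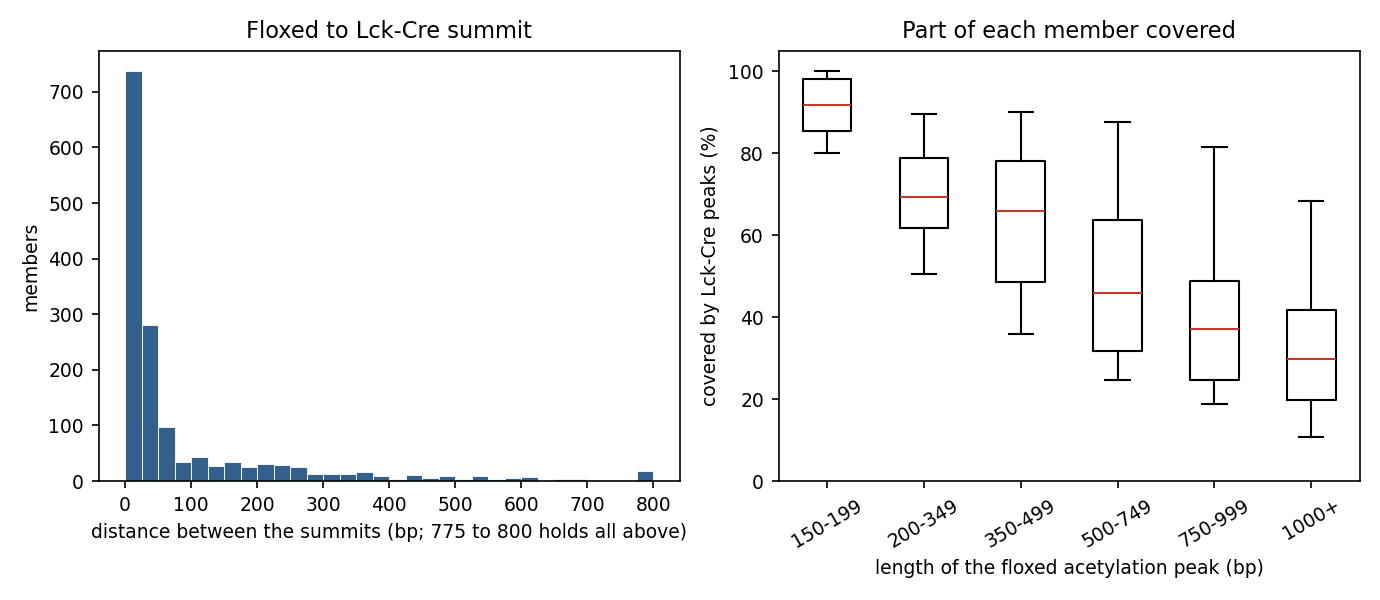
Left, number of retained ZFAT-free peaks (y axis) by distance between the floxed summit and the summit of the strongest Lck-Cre peak (x axis, bp, bins of 25 bp); 737 of 1520 are under 25 bp. Right, percent of each floxed peak covered by Lck-Cre peaks by floxed length (bp), with the median (red), quartiles (box) and the 5th and 95th percentiles (whiskers); the median is 91.8% below 200 bp and 29.8% at 1000 bp or more.

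In a few regions the acetylated stretch was broken into several Lck-Cre peaks. This was so at 56 regions (3.68%, 2.79% to 4.76%), of which 5 held 3 peaks, and they were long, from 654 to 2984 bp with a median of 1330.5 bp. Neighbouring Lck-Cre summits within a region were 286 to 1343 bp apart, with a median of 570 bp over 61 spacings. The longest retained peak, at chr11:102177939-102180922, was 2984 bp long and held 2 Lck-Cre peaks, the stronger 1033 bp long, with 99 floxed and 25 Lck-Cre fragments. The reverse case occurred once: the floxed peaks at chr1:51534512-51534664 and chr1:51535002-51535241, shared a single Lck-Cre peak of 640 bp. Its summit was 15 bp from that of the second of them, where the floxed pileup was 63 fragments against 12 in the first.

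Retained peaks had other retained peaks among their close neighbours more often than the peaks that were not called. Of the 1520 retained peaks, 382 (25.1%, 23.0% to 27.4%) had another floxed acetylation peak within 1000 bp, beside 25.1% of all ZFAT-free peaks. Among these 382, another retained peak was within 1000 bp in 88 (23.0%, 18.9% to 27.6%). Among the 2768 ZFAT-free peaks that had such a neighbour and were not called in Lck-Cre, a retained peak was that close in 332 (11.99%, 10.8% to 13.3%). Where a retained peak and a ZFAT-free peak that was not called lay within 1000 bp of each other, the retained peak had the higher floxed P score in 257 of 335 pairs (76.7%, 71.8% to 81.1%) and was the longer in 254 (75.8%, 70.9% to 80.3%). Crowding as such did not set the retained peaks apart within 1000 bp. At longer distances they were the more isolated: 34.5% (32.1% to 37.0%) had a neighbour within 5000 bp, against 38.5% (37.6% to 39.4%) of the ZFAT-free peaks not called. The nearest other floxed acetylation peak was a median of 17944 bp away, against 11203 bp. Since the call was part of the rule, the counts of retained neighbours are descriptive.

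The rule removed peaks with floxed ZFAT, and in their distance to it the retained peaks were close to the other ZFAT-free peaks. The nearest floxed ZFAT peak was a median of 283530 bp away (quartiles 113606 and 676211), against 252067 bp (93376 and 635605) for the ZFAT-free peaks that were not called. A floxed ZFAT peak lay within 1000 bp of 11 retained peaks (0.724%, 0.362% to 1.29%), beside 0.796% of all ZFAT-free peaks. No Lck-Cre ZFAT peak overlapped any of the 1520 (which allows a share of up to 0.197%), beside 0.154% of all 13016 floxed acetylation peaks. It overlapped none of the 11049 ZFAT-free peaks not called either, and all 20 overlaps were with peaks that carried floxed ZFAT. These limits for a count of 0 are 3 counts over the total, and the upper exact 95% bound for 0 of 1520 is 0.242%.

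The B6 ZFAT library, which the rule did not use, gave a check on the label. A B6 peak called against input overlapped 56 retained peaks (3.68%, 2.79% to 4.76%), beside 2.33% of all ZFAT-free peaks and 2.14% (1.88% to 2.43%) of those not called in Lck-Cre. These intervals do not overlap. Nor do they among peaks with a floxed P score of 25 or more, where 51 of 1344 retained peaks (3.79%, 2.84% to 4.96%) had a B6 peak, beside 2.46% of all ZFAT-free peaks and 2.11% (1.73% to 2.54%) of those not called. Between 300 bp and below 750 bp the shares were 35 of 846 (4.14%, 2.90% to 5.71%) and 102 of 4173 (2.44%, 2.00% to 2.96%), a gap of like size with intervals that just overlap. The cut at 25 leaves strength unmatched above it, and in narrower bands of floxed P score the intervals overlap. From 20 to below 50 the shares were 3.24% (1.86% to 5.21%) in the retained peaks and 1.70% (1.34% to 2.12%) in those not called. From 50 to below 100 they were 3.75% (2.51% to 5.38%) and 2.81% (2.06% to 3.74%). At 100 or more they were 4.40% (1.79% to 8.86%) and 2.11% (0.256% to 7.40%). Below 10 they were 0 of 27 peaks and 2.45%. Per 100 kb of acetylation peak there were 6.37 B6 summits (4.83 to 8.26) in the retained peaks and 6.17 (5.40 to 7.02) in those not called. At floxed P scores of 25 or more the densities were 6.14 (4.58 to 8.05) and 4.94 (4.04 to 5.97). The intervals of the densities overlap in both comparisons. Where ZFAT had been called in floxed cells the density was several times higher, at 46.5 (29.8 to 69.2) in the 80 regions called in Lck-Cre and 42.7 (32.7 to 54.7) in the 367 not called.

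The B6 peaks over the retained regions were smaller than those over regions with floxed ZFAT, and no smaller than over the other ZFAT-free peaks. The 57 called against input had a median pileup of 11 fragments (range 4 to 30) and a median P score of 9.25, and 22 of them reached a P score of 10. The 26 B6 peaks over the 80 regions called in Lck-Cre with floxed ZFAT had a median of 20.5 fragments, and the 237 over ZFAT-free peaks not called had a median of 8 fragments and a median P score of 8.57. Against IgG, 9 retained peaks had a B6 peak (0.592%, 0.271% to 1.12%), beside 0.493% of all ZFAT-free peaks, and 3 had one in each of the B6 lists, beside 0.143%. For the remainder of the retained set, ZFAT was called in neither floxed nor B6 thymocytes, at inferred ZFAT depths of about 1510000 floxed and 632000 B6 fragments.

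The label ZFAT-free refers to floxed ZFAT peaks only, and 3 of the retained peaks with a B6 ZFAT peak had one in both lists (0.197%). Both lists come from the same B6 ChIP library, called against input and against IgG, so they are not independent. At chr10:7400703-7401626, the B6 pileup was 23 fragments, with folds of 11.3 against input and 6.44 against IgG. At chr5:28643096-28644201, it was 21 fragments, with folds of 13.6 and 7.81. At chr12:56566645-56566930, it was 4 fragments, with a fold of 4.76 in both lists. Their acetylation ratios of 0.418 (0.242 to 0.691), 0.391 (0.216 to 0.670) and 0.480 (0.138 to 1.35) were near the median of the retained set.

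**Figure D4:**
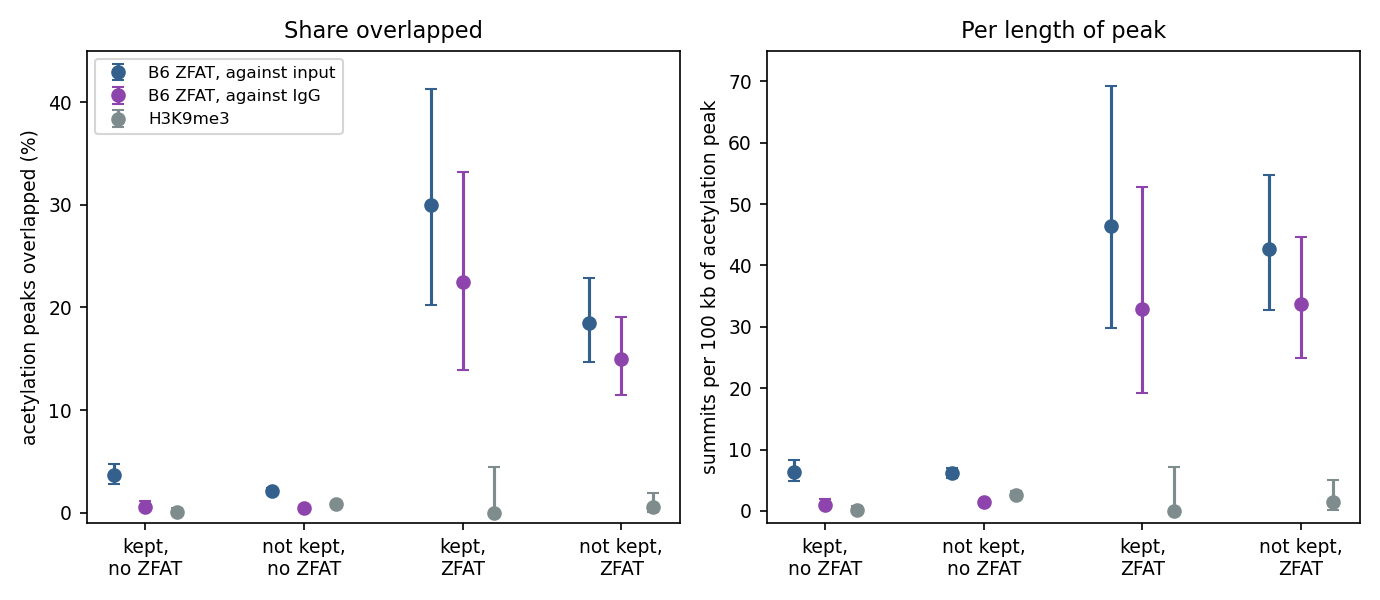
Overlap of 4 classes of floxed acetylation peaks (called in Lck-Cre or not, with or without a floxed ZFAT peak) with B6 ZFAT and floxed H3K9me3 lists: left, percent of peaks overlapped with exact binomial 95% intervals; right, summits per 100 kb of acetylation peak with Poisson 95% intervals. Against input, the retained ZFAT-free peaks have 6.37 B6 summits per 100 kb and the ZFAT-free peaks not called in Lck-Cre 6.17.

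H3K9me3 was nearly absent from the retained peaks. It overlapped 2 of 1520 (0.132%, 0.0159% to 0.474%), beside 0.819% of all ZFAT-free peaks and 0.914% (0.745% to 1.11%) of those not called in Lck-Cre. Both were weak: chr14:77939511-77939672, had 14 floxed and 9 Lck-Cre acetylation fragments (ratio 1.05, 0.400 to 2.60), and chr13:67174230-67174386, had 4 and 6. The ratio of the latter, 2.45 (0.580 to 11.8), was the highest of the retained set. Their H3K9me3 pileups were 13 and 8 fragments. The shares differed with peak strength. At floxed P scores of 25 or more the mark overlapped 0 of 1344 retained peaks, which allows a share of up to 0.223% (exact 95% bound 0.274%), and 6 of 5035 of those not called (0.119%, 0.0437% to 0.259%). Below a P score of 10 it overlapped 2 of 27 (7.41%, 0.910% to 24.3%) and 42 of 1508 (2.79%, 2.01% to 3.75%). At like strength no difference in H3K9me3 was detectable at this depth.

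Compared with the 80 acetylation peaks that were called in Lck-Cre and did carry floxed ZFAT, the retained ZFAT-free peaks had a pileup ratio in the same range. The scaled pileup ratio had a median of 0.463 (quartiles 0.386 and 0.544) with ZFAT and 0.485 (0.414 and 0.586) without. The floxed P score was 67.1 (49.2 and 89.4) with ZFAT and 57.1 without, and the length 543 bp and 509 bp, all medians. Several Lck-Cre peaks were found within 9 of the 80 (11.3%, 5.28% to 20.3%), against 3.68% of the retained ZFAT-free peaks. With 1 library per line the difference in ratio cannot be tested, and the quartile ranges overlap, with the median and both quartiles lower in the peaks with ZFAT.

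Retained peaks were spread over all 20 chromosomes of the list, in unequal shares. The share of ZFAT-free peaks retained was between 8.37% and 18.9% by chromosome, beside 12.1% of all ZFAT-free peaks. It was highest on chromosome 18, at 56 of 296 (18.9%, 14.6% to 23.9%), and lowest on chromosome X, at 19 of 227 (8.37%, 5.11% to 12.8%), and chromosome 19, at 39 of 464 (8.41%, 6.05% to 11.3%). At floxed P scores of 25 or more, chromosome 18 was still the highest, at 30.6% (53 of 173, 23.9% to 38.1%), and chromosome X the lowest, at 9.57% (9 of 94, 4.47% to 17.4%). Over all chromosomes 1344 of 6379 ZFAT-free peaks were retained at this cut. The chromosomes named here were picked as the extremes of 20. The median floxed P score of ZFAT-free peaks was 32.1 on chromosome 18 and 20.6 on chromosome X, so peak strength moved with these shares, and its part in them was not tested beyond the split at 25. The ratio of the retained peaks themselves varied less, with chromosome medians from 0.442 on chromosome 1 to 0.544 on chromosome X.

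**Figure D5:**
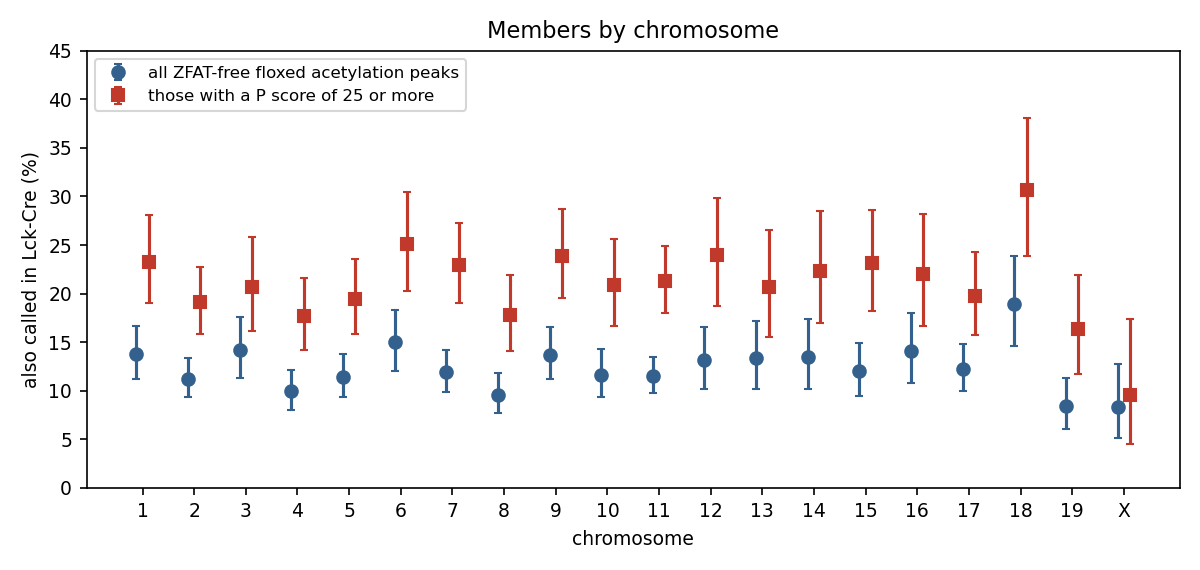
Share of ZFAT-free floxed acetylation peaks also called in Lck-Cre thymocytes (y axis, percent) by chromosome (x axis), for all peaks (blue circles) and for peaks with a floxed P score of 25 or more (red squares); bars are exact 95% binomial intervals. Chromosome 18 is highest in both, at 18.9% and 30.6%, and chromosome X is lowest in both, at 8.37% and 9.57%.

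Seen from the Lck-Cre side, these regions were most of what was called. Of 2225 Lck-Cre acetylation peaks, 1580 (71.0%, 69.1% to 72.9%) overlapped a retained ZFAT-free peak. For comparison, 1669 of the 2225 overlapped a floxed acetylation peak of any class. Of the 13016 floxed peaks, 12569 were ZFAT-free, so the closeness of these counts largely follows from the make-up of the floxed list. The share is therefore a description. A further 556 Lck-Cre peaks overlapped no floxed peak. Of these, 4 lay within 1000 bp of 1 of the 1520 retained peaks. Another 15 lay within 1000 bp of 1 of the 11049 ZFAT-free floxed peaks that were not called.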

How the data were processed

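ChIP-seq peak lists of 6 thymocyte libraries, 1 per group, were used; the input and IgG libraries were not analysed here. Chromatin fixed for 10 min in 1% formaldehyde was cut with 375 units of MNase, a nuclease, and then sonicated, per the labels' protocols. The authors called peaks per library in mm9, and the submitters' processing notes name CASAVA 1.8.1, Trimmomatic 0.22, SAMtools 0.1.18 and, for B6, MACS without a version. No aligner name is given in the sources used here. Fragment length was 150 bp and the p cutoff 1e-05, per the file headers. The deposited P and Q scores are −log10 values and the deposited fold is a ratio of ChIP to local background; the Q score was not used.

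Overlaps were computed with Python 3.11.15, numpy 2.4.6, pandas 2.3.3 and scipy 1.17.1 on coordinates taken as 1-based and closed, and a chromosome, start and end identify each region. Genes and DNA sequence at these positions were not analysed here, since no mm9 genome or annotation was used; for the same reason the cell type was not checked against marker genes. The pileup n and background b solve fold = (n + 1)/(b + 1) with P the Poisson tail above n, within 0.0001. All 13016 floxed and 2225 Lck-Cre acetylation peaks had a single solution, and 500 of 500 simulated pileups were recovered. The lowest background, spread over the effective genome of 1870000000 bp, gave the depth. Where several Lck-Cre peaks overlapped, that with the highest P score was used. Percentages have exact Clopper-Pearson intervals, the limit for a count of 0 is 3 counts over the total, pileups exact Poisson intervals, and pileup ratios exact conditional binomial intervals, all at 95%. Duplicate reads may not be independent fragments.

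The members, the lists and the rule for named regions were chosen with earlier results of these data known. The rule took, by P score, the 6 strongest floxed and 6 strongest Lck-Cre regions, the 3 weakest, the 3 nearest outside, up to 4 with B6 peaks in both lists, up to 3 with H3K9me3, the 3 highest and 3 lowest ratios, and the Lck-Cre peaks over the most members. The longest region was added after its values were seen. Alternatives covered the overlap, the ZFAT definition, score thresholds, peak length, background and neighbour distance.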

Additional observations from a re-analysis of the deposited data

How the results depend on the processing

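The number of retained ZFAT-free peaks stayed within 1.5 times of 1520 under 6 of 8 alternatives. It was 884 when at least 50% of the floxed peak had to be covered and 856 with Lck-Cre P scores of 10 or more, and their shares of ZFAT-free peaks were 7.03% and 6.81%. The share was 10.8% with the floxed summit inside the Lck-Cre peak and 13.5% with floxed P scores of 10 or more, each against 12.1%. The median pileup ratio lay between 0.436 and 0.513 in all 11 alternatives tried: 0.503 with 50% covered, 0.513 with Lck-Cre P scores of 10 or more, 0.496 with all overlapping Lck-Cre pileups summed, 0.436 with background subtracted and 0.502 with summits within 50 bp only. The last pair were added after the data were seen. The share with a B6 ZFAT peak was 0.592% against IgG and 1.45% with B6 P scores of 10 or more, where the peaks not called had 0.480% and 0.824%. The share with H3K9me3 was 0.0% at floxed P scores of 25 or more, also added after the data were seen. The share with a neighbouring acetylation peak was 21.8% within 500 bp, against 19.3% of the ZFAT-free peaks not called, and 34.5% within 5000 bp, against 38.5%, so its order turned with the distance. The share at gene starts was not run, since no mm9 annotation was used. No paired analysis was possible because each group had 1 library. The Lck-Cre acetylation library had about 1340000 inferred fragments against 2190000 in floxed cells; no alternative with equal depth was run. With floxed lengths from 300 to below 750 bp, added after the data were seen, the B6 share was 4.14% against 2.44%. The causes of these shifts were not tested.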
